A study of Mus musculus with 6 samples.

Results

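The genes described here are the 10 members of uracil base excision repair given by name, Ung, Smug1, Tdg, Mbd4, Neil3, Apex1, Polb, Lig3, Xrcc1 and Parp1, out of 41325 gene rows in each file. All 10 names were found once, and all 10 had enough reads to be tested among 18303 genes. The data were bulk RNA-seq of polyadenylated RNA from 6 libraries of female ICR mice, an outbred stock, bought at 10 weeks of age, with salivary gland given as the tissue. The elemental diet group (3 libraries) received 5-fluorouracil (5-FU) into the peritoneum at a daily dose of 20 mg/kg, given 2 days weekly for 3 weeks, and by mouth Elental, a liquid diet of amino acids, at 1.6 kcal in 0.8 mL per day on 5 days a week. The saline group (3 libraries, diet label "control diet") received the same 5-FU and 0.8 mL per day of saline by mouth. Both groups ate commercial chow and both carried 5-FU, and no library without 5-FU was analysed here. No label ties a library to 1 of the 3 mice in its group. The p-values therefore reflect only how these libraries vary, which may be technical variation.

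Base excision repair removes single damaged bases from DNA. A DNA glycosylase cuts the base from its sugar, the endonuclease APEX1 nicks the strand at the empty site, the polymerase POLB fills the gap, and the ligase LIG3 with its scaffold XRCC1 seals it, while PARP1 binds the nick and calls in XRCC1. In the long-patch form of the pathway PCNA, FEN1 and LIG1, which also work at replication forks, replace a stretch of bases. Uracil enters DNA when dUTP is used in place of dTTP or when cytosine is deaminated, and 5-FU adds to this because its products block thymidylate synthase and can themselves be built into DNA.

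Libraries held 29053287 to 33073125 reads assigned to genes. Of 9 salivary acinar marker genes 5 (Smgc, Pip, Bpifa1, Prb1 and Dcpp1) had no read in any library, which allows up to 3 reads each, or 0.0907 to 0.103 counts per megaread (CPM), a limit that covers counting error only. The acinar water channel Aqp5 had 4 reads over the elemental diet libraries and 2 over the saline ones, so the tissue label was not borne out by these markers and the samples are called by their label only. The 4 keratinocyte markers summed to 1.25 to 1.80 CPM with elemental diet, against 2.31 to 3.32 with saline. Libraries differed by group in marker genes of other cells. The 12 markers of cell division were all higher with elemental diet, with a summed level of 4220 to 4936 CPM with elemental diet, against 162 to 171 with saline. The 9 red cell precursor markers were likewise all higher, at 41604 to 42454 CPM with elemental diet, against 2829 to 4504 with saline, and the 7 B cell markers were all lower, at 757 to 810 CPM with elemental diet, against 5526 to 5716 with saline. None of these genes was at 0 in any library. The 7 neutrophil markers were all higher, at 210 to 244 CPM with elemental diet, against 7.70 to 10.3 with saline, where Mpo, Elane, Ltf and Ngp were each at 0 in 1 library. The 6 T cell markers were all lower (54.5 to 59.4 CPM with elemental diet, against 353 to 427 with saline), as were the 6 macrophage markers (471 to 573 CPM with elemental diet, against 1092 to 1312 with saline). These markers differed between the same groups that the results below compare, and their part in those results was not tested. In bulk RNA fewer cells of a type and less RNA per cell cannot be told apart.

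So that the glycosylase genes that rose most (Ung, Neil3 and Tdg) can be read beside the member that fell (Smug1), their promoters are printed as RefSeq sequences of build GRCm38.p6. Each is the part of the 250 bases before the RefSeq start that no GENCODE M21 exon covers, written 5′ to 3′ on the strand of the gene, with a CCAAT box in capitals (ATTGG where it lies on the other strand).
Ung promoter, chr5:114130185-114130385, plus strand: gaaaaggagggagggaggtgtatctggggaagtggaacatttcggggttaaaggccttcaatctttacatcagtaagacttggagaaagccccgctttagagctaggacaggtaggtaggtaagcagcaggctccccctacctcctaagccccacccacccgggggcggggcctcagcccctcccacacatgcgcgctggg
Neil3 promoter, chr8:53639066-53639315, minus strand: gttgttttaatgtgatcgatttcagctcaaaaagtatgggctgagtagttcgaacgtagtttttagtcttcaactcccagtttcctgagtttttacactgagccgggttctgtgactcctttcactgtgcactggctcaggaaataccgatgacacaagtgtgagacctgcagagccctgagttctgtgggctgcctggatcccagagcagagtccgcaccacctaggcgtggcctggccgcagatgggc
Tdg promoter, chr10:82629588-82629827, plus strand: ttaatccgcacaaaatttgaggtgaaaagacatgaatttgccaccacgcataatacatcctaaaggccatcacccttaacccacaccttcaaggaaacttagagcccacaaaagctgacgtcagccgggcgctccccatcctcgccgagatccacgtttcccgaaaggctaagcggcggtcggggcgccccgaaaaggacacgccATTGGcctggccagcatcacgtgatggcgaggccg
Smug1 promoter, chr15:103163438-103163534, minus strand: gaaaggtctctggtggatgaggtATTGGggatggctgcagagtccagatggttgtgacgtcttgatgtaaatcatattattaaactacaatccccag
The Smug1 window lies inside the gene as the files place it, and the others lie before it. RefSeq windows of 300 bases (250 before the start and 50 after) were held for 9 of the 10 members, all but Polb. Of these 9 windows 5 (Apex1, Mbd4, Smug1, Tdg and Xrcc1) held CCAAT on either strand, against 37.4% of 32851 windows of all genes. The E2F-type letters TTTNNCGC, with N any base, were in 0 of 9 members and 5.17% of all windows. The cell cycle element letters TTTGAA, the only form of that element searched, were in 0 of 9 and 17.9%. These matches describe letters only.

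The question was how transcripts of uracil repair differed between the diets under 5-FU. Neil3 and Ung were far higher with elemental diet, and Tdg and Apex1 were 2.06-fold to 2.99-fold higher. Lig3, Parp1, Xrcc1, Polb and the glycosylase gene Mbd4 were 1.24-fold to 1.60-fold higher, and Smug1 was 1.52-fold lower. With edgeR's quasi-likelihood test at a Benjamini-Hochberg adjusted p under 0.05, 9 members were higher and 1 was lower. The calls of Mbd4 and Polb were lost with upper quartile factors or without composition factors, which left 7 higher, that of Mbd4 also on unique reads or TPM, and those of Mbd4 and Smug1 on unique exon-exon reads, which left 8 higher and 0 lower. Among all 18303 genes tested 78.1% were called, 38.0% higher and 40.2% lower, so a call alone sets no gene apart. Beyond 2-fold 4 members were higher and 0 lower, where 19.1% and 23.7% of all genes were. The groups did not overlap in normalized CPM for any of the 10 members, against 81.0% of all genes. The median log2 fold change was 0.62 over the members and -0.08 over all genes tested.

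**Figure D1:**
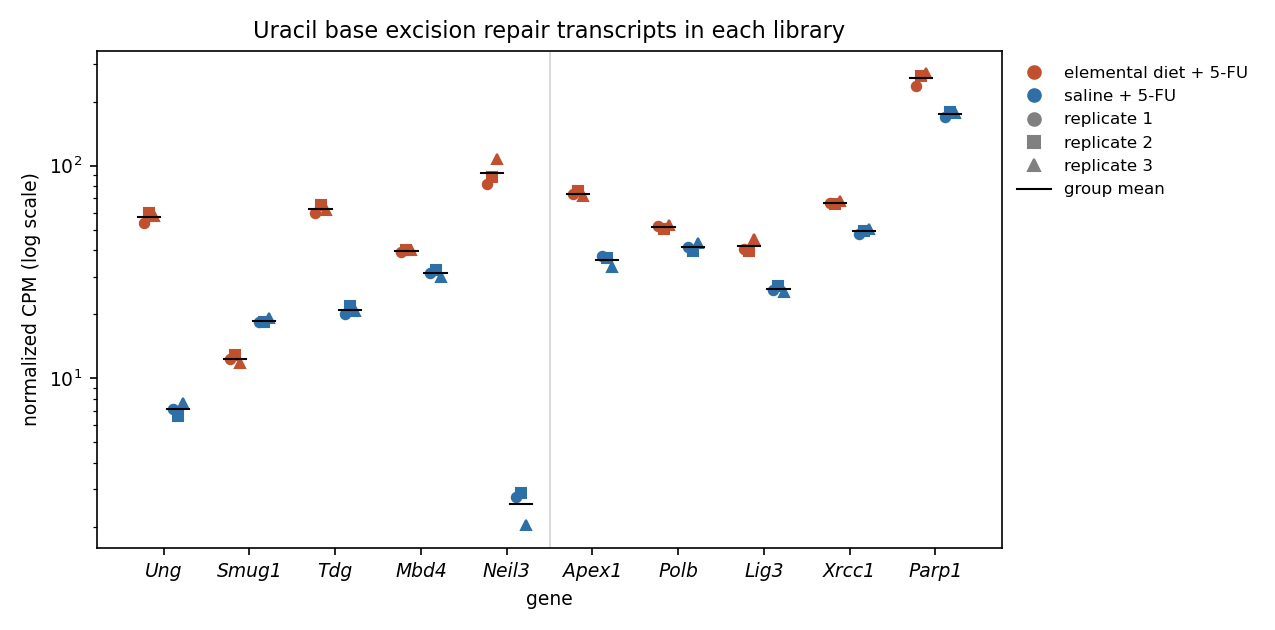
Normalized CPM (log axis) of each member in each library, elemental diet libraries to the left of saline libraries for each gene. Symbols mark replicates, black bars are group means, the vertical line parts glycosylases from the later steps, and the groups stand furthest apart for Neil3 and Ung.

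Among the glycosylases, Ung encodes the main uracil glycosylase of dividing cells, whose nuclear form follows the replication fork. Ung had 54.0, 59.9 and 58.1 normalized CPM in the 3 elemental diet libraries, against 7.16, 6.61 and 7.63 in the 3 saline libraries. The lowest elemental diet library was far above the highest saline library, and the fold was 8.03 (log2 fold change 3.01, SE 0.08, edgeR adjusted p = 3.23e-13). Its log2 fold change was above that of 96.3% of the genes tested. Every Ung read was unique to the gene, which lies on GRCm38 chromosome 5 from 114130386 to 114139323.

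Neil3 encodes a glycosylase for oxidized bases that also opens DNA crosslinks and is known from dividing cells. It had 81.8, 88.4 and 107 CPM in the elemental diet libraries, against 2.74, 2.88 and 2.03 in the saline libraries. This was the largest change of any member, 36.0-fold (log2 fold change 5.17, SE 0.14, adjusted p = 1.72e-10), above 99.5% of the genes tested. The third elemental diet library was the highest and the third saline library the lowest. The gene lies on chromosome 8, 53586867 to 53639065, minus strand. About as many Neil3 reads lay in introns as in exons, and on exon reads alone its log2 fold change was 5.17 as well.

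Smug1 encodes a glycosylase that removes uracil, 5-hydroxymethyluracil and 5-fluorouracil without being tied to replication. It moved against the other members, with 12.3, 12.8 and 11.8 CPM in the elemental diet libraries, against 18.4, 18.4 and 19.2 in the saline libraries (adjusted p = 2.51e-05, log2 fold change -0.60, SE 0.09). The highest elemental diet library stayed below the lowest saline library. Few Smug1 reads crossed exon junctions, 8 to 16 per elemental diet library and 8 to 24 per saline library, and with those reads alone the log2 fold change was -0.36 and was not called (adjusted p = 0.496). No alternative reversed it.

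Tdg encodes thymine DNA glycosylase, which cuts thymine or uracil paired with guanine and also 5-formyl- and 5-carboxylcytosine. It had 59.8, 65.5 and 61.9 CPM with elemental diet, against 20.1, 21.8 and 20.7 with saline (adjusted p = 2.33e-11, log2 fold change 1.58, SE 0.06). The groups were well apart. Between 33.1% and 43.5% of its reads were unique to the gene, GENCODE M21 lists a processed pseudogene Tdg-ps on chromosome 15, and on unique reads the log2 fold change was 1.23.

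Mbd4, the other glycosylase for guanine mismatches, changed little. It had 39.1, 40.2 and 40.1 CPM with elemental diet, against 31.2, 32.3 and 30.0 with saline (adjusted p = 0.000108, log2 fold change 0.35, SE 0.06). That rise depended on the scaling and on how shared reads were counted. It was 0.04 without composition scaling (adjusted p = 0.506) and 0.10 on unique reads (adjusted p = 0.268). An antisense gene, Gm44206, overlaps Mbd4, and 56.5% to 69.5% of the Mbd4 reads were unique. Gm44206 had 0 to 5 reads per elemental diet library and 1 to 833 per saline library, of which at most 2 per saline library were unique. Its part in the Mbd4 values was not tested.

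The balance of the 4 uracil glycosylases differed, as a share of their own summed level shows. In the authors' TPM, a level per transcript length, Ung made up 34.5% ± 0.599 of the summed level of Ung, Tdg, Mbd4 and Smug1 with elemental diet and 10.4% ± 1.17 with saline (SD, n = 3). The Smug1 share was 6.35% ± 0.307 with elemental diet, against 22.7% ± 0.365 with saline. The share of Tdg was 38.3% ± 0.244 with elemental diet, against 29.6% ± 1.07 with saline. For Mbd4 it was 20.8% ± 0.479 with elemental diet, against 37.4% ± 0.961 with saline. The order turned. With elemental diet Ung (25.3 to 27.3 TPM) stood above Mbd4 (15.9 to 16.0) and Smug1 (4.59 to 5.04), while with saline Ung (3.71 to 4.54) stood below Smug1 (8.94 to 9.08) and Mbd4 (14.2 to 15.2). None of these ranges overlapped within a group. All Ung and Smug1 reads were unique to the gene. Of Tdg reads 33.1% to 43.5% were unique, and of Mbd4 reads 56.5% to 69.5%. The shares on unique reads were not computed.

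**Figure D2:**
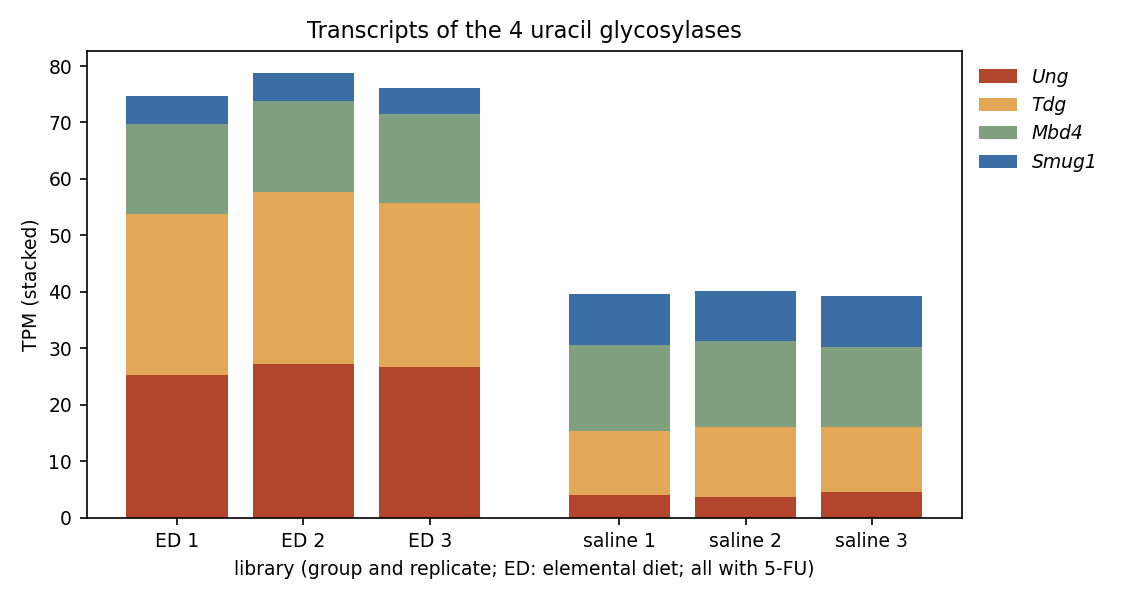
Stacked TPM of the 4 uracil glycosylase transcripts in each of the 6 libraries, elemental diet libraries on the left. The Ung segment is 25.3 to 27.3 TPM high in the elemental diet libraries and 3.71 to 4.54 in the saline libraries, while the Smug1 segment is larger with saline.

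Across all 10 members Parp1 and Apex1 were the most abundant per length in both groups. Apex1 stood at 135 ± 3.93 TPM with elemental diet and 86.3 ± 7.05 with saline, and Parp1 at 124 ± 7.06 TPM with elemental diet and 107 ± 2.61 with saline (SD, n = 3). Apex1 led with elemental diet and Parp1 with saline, with no overlap in either. With elemental diet the order then ran Tdg, Ung, Xrcc1, Polb, Neil3, Mbd4, Lig3 and Smug1, where Ung and Xrcc1 overlapped and Neil3 (20.8 to 25.6 TPM) overlapped Polb, Xrcc1 and Ung. With saline it ran Xrcc1, Polb, Mbd4, Lig3, Tdg, Smug1, Ung and Neil3, where Lig3 and Tdg overlapped. Neil3 stood at 22.4 ± 2.70 TPM with elemental diet and at 0.766 ± 0.0550 with saline, where it was last. Only 33.1% to 43.5% of the Tdg reads and 48.6% to 55.5% of the Apex1 reads were unique. The order on unique reads was not computed.

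Among the 10 members, those that act after the glycosylases had smaller fold changes than Neil3, Ung and Tdg. The step in the pathway did not separate the members, since the glycosylase genes Mbd4 and Smug1 did not share these larger rises. Mbd4 (log2 fold change 0.35) rose less than Apex1, Lig3, Parp1 and Xrcc1, though more than Polb (0.31), and Smug1 fell. Apex1, the main endonuclease at empty sites, had 71.7 to 76.0 CPM with elemental diet, against 33.2 to 37.5 with saline (adjusted p = 1.24e-09, log2 fold change 1.04, SE 0.06). It shares 1072 of its 2172 bases with Pip4p1 on the other strand, a gene that had fewer reads with elemental diet (818 to 969) than with saline (1902 to 2148); the sources do not say whether reads were counted by strand. On unique exon-exon reads, which need a splice junction of the gene, the Apex1 log2 fold change was 0.75 (adjusted p = 9.21e-08).

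Lig3, the ligase of short-patch and mitochondrial repair, had 39.8 to 45.3 CPM with elemental diet, against 25.3 to 27.2 with saline (log2 fold change 0.68, SE 0.07). Rffl, which shares 1826 bases with it on the other strand, had 2042 to 2290 reads with elemental diet and 1250 to 1358 with saline. Between 68.7% and 74.0% of the Lig3 reads were unique, and on unique exon-exon reads the Lig3 log2 fold change was 0.41. Parp1, the sensor of strand breaks, had 238 to 272 CPM with elemental diet, against 169 to 178 with saline (log2 fold change 0.57, SE 0.06). Xrcc1, the scaffold, had 65.7 to 68.1 CPM with elemental diet, against 47.5 to 50.5 with saline (log2 fold change 0.45, SE 0.05). The largest adjusted p of these 3 genes was 2.53e-06, and they were called higher under every alternative tried, with the lowest log2 fold change at 0.29 for Lig3, 0.22 for Parp1 and 0.14 for Xrcc1.

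Polb, the gap-filling polymerase, had 50.4 to 52.3 CPM with elemental diet, against 39.7 to 43.1 with saline (adjusted p = 0.000181, log2 fold change 0.31, SE 0.06). As with Mbd4, the rise has no settled size, since it was 0.00 without composition scaling (adjusted p = 0.938) and 0.52 on exon reads. Without composition scaling the median over every gene tested was -0.39 in place of -0.08, and the calls over all genes were then 5407 higher and 9265 lower, against 6951 and 7352 with the scaling used here.

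Other genes of the pathway were counted in 4 lists by role. Of 19 long-patch genes 18 were higher and 1 lower with elemental diet, where 38.0% of all genes tested were higher and 40.2% lower. Their median log2 fold change was 2.38, and that of all genes was -0.08. Lig1, the replicative ligase, had 408 ± 29.9 CPM with elemental diet, against 22.0 ± 1.41 with saline (SD, n = 3), 18.6-fold higher. Fen1, the flap nuclease, was 13.2-fold and Pcna, the sliding clamp, 10.0-fold higher. Only 10.6% to 15.8% of the Fen1 reads were unique. The gene that fell was Pold4, the small subunit of polymerase delta, 3.70-fold lower, a name picked once its value was known.

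**Figure D3:**
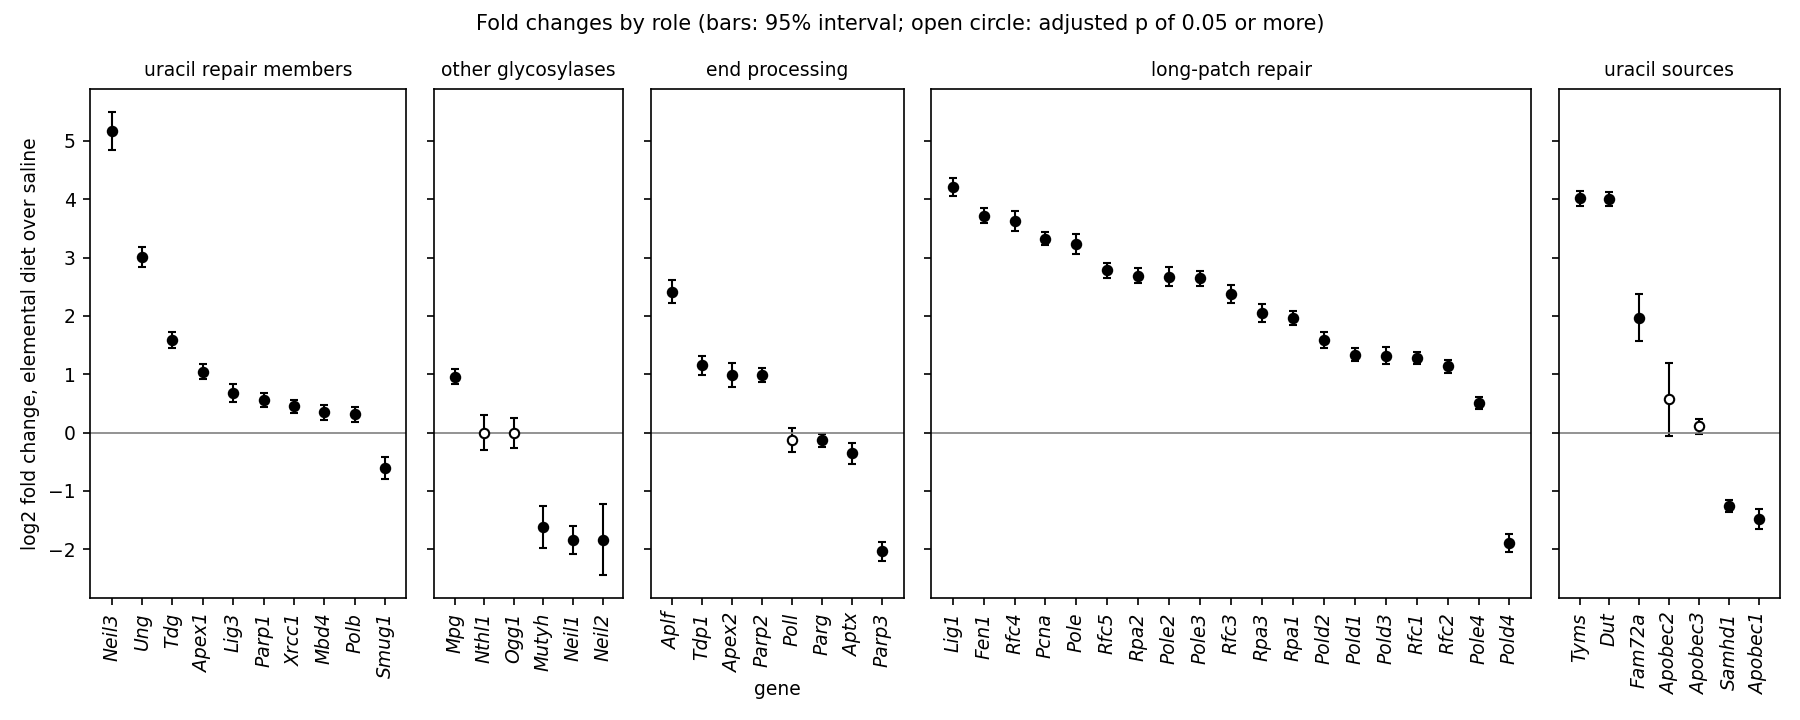
Log2 fold change (elemental diet over saline) with its 95% interval for the members and for genes of 4 related lists, each ordered by size. Filled circles passed the test at an adjusted p under 0.05. The long-patch genes lie nearly all above 0, and the other glycosylases lie mostly at or below it.

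The 6 glycosylases of other damaged bases were mixed, with 1 higher, 3 lower and 2 not called, and a median log2 fold change of -0.81. Over all genes tested 38.0% were higher and 40.2% lower. Neil1, which removes oxidized bases, had 5.14 ± 0.456 CPM with elemental diet, against 18.3 ± 0.501 with saline, 3.57-fold lower (adjusted p = 1.99e-09). Mutyh, which removes adenine opposite 8-oxoguanine, was 3.07-fold lower. Neil2, named after its value was seen, was also 3.57-fold lower, from 48 elemental diet reads and 210 saline reads in all. Ogg1, the 8-oxoguanine glycosylase, had 9.01 ± 0.219 CPM with elemental diet, against 9.02 ± 0.715 with saline, and the 95% interval of its log2 fold change was -0.26 to 0.25. It was called lower with upper quartile factors (-0.27, adjusted p = 0.0494), without composition factors (-0.31, adjusted p = 0.0308) and with limma on TPM (-0.44, adjusted p = 0.00168). Mpg, which removes alkylated bases, was 1.95-fold higher, but its whole length lies within Nprl3 on the other strand and as few as 27.8% of its reads were unique. The remaining gene that was not called was Nthl1, likewise chosen on its value, and on exon reads it was called higher (0.40, adjusted p = 0.0418).

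Of 9 genes of end processing and related steps 4 were higher, 4 lower and 1, Poll, not called. Their median log2 fold change was -0.13, and of all genes tested 38.0% were higher and 40.2% lower. Aplf, a factor that binds poly(ADP-ribose) at breaks, was 5.33-fold higher, with 59.7 ± 7.05 CPM with elemental diet, against 11.2 ± 0.558 with saline. Parp2, which partly overlaps with PARP1 in function, was 1.99-fold higher, and Parp3, another member of the PARP family, was 4.10-fold lower. Apex2, the minor AP endonuclease, was 1.99-fold higher, but the gene overlaps the erythroid gene Alas2 on the other strand over 23264 bases, and Alas2 had 16716 to 18608 reads per elemental diet library and 1453 to 2377 per saline library. On unique exon-exon reads the log2 fold change of Apex2 was 1.05 (adjusted p = 0.000386). Among genes named after their values were seen, Tdp1 rose, and Aptx and Parg fell by 0.36 and 0.13 on the log2 scale. Poll was called lower with upper quartile factors (-0.40, adjusted p = 0.00237), without composition factors (-0.44, adjusted p = 0.0014) and with limma on TPM (-0.38, adjusted p = 0.00189), which made 5 genes lower. The Parg call was lost with RLE factors (adjusted p = 0.16), with DESeq2 (adjusted p = 0.247), on exon reads (adjusted p = 0.0786) and with the replicate block (adjusted p = 0.0573). It was also lost without any 1 elemental diet library or without the first saline library (adjusted p = 0.052 to 0.149).

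The list labelled uracil sources held 8 genes, of which 3 were higher, 3 lower and 2 not called, with a median log2 fold change of 0.34. Among all genes tested 38.0% were higher and 40.2% lower. Dut, the enzyme that destroys dUTP, had 557 ± 5.65 CPM with elemental diet, against 34.6 ± 2.15 with saline, 16.1-fold higher. Fam72a, whose product antagonizes nuclear UNG, was 3.92-fold higher. Tyms, the target of 5-FU, was 16.2-fold higher. Samhd1, which breaks down dNTPs, was 2.38-fold lower. Apobec1, which fell, and Apobec2 and Apobec3, which were not called, were named after their values were seen. Apobec3 was called in both directions under other settings, from -0.20 without composition factors (adjusted p = 0.00218) to 0.81 on unique exon-exon reads (adjusted p = 6.83e-08). Apobec2 was called higher without the second saline library (0.86, adjusted p = 0.0272).

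Ratios of reads between 2 genes of a library do not depend on the scaling of libraries, and 11 such pairs with related roles were compared. Ung reads per Smug1 read were 4.40, 4.68 and 4.92 in the elemental diet libraries, against 0.390, 0.359 and 0.398 in the saline libraries, a 12.2-fold difference. Lig1 reads per Lig3 read were 9.31, 10.2 and 9.69 with elemental diet, against 0.829, 0.764 and 0.929 with saline. Neil3 reads per Neil1 read were 17.7, 16.0 and 20.3 with elemental diet, against 0.154, 0.156 and 0.108 with saline. The ratios of TPM, which allow for gene length, lay above 1 with elemental diet and below 1 with saline for Ung to Smug1 and for Neil3 to Neil1. For Lig1 to Lig3 they were 16.0 to 17.2 with elemental diet and 1.27 to 1.53 with saline, so per length Lig1 was the more abundant in both groups. For 9 of the 11 pairs the groups did not overlap, and an exact permutation test, two-sided, returned p = 0.1 (0.122 adjusted over 11 pairs), the smallest value that 3 against 3 libraries allow. No such share was computed over other gene pairs, so this count sets these pairs apart from no others. In normalized CPM the groups did not overlap for 81.0% of all genes tested.

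The members that rose most were compared with genes of dividing cells in the same way. Ung reads per Pcna read were 0.0754, 0.0821 and 0.0767 with elemental diet, against 0.101, 0.0903 and 0.101 with saline, so Ung was 1.25-fold lower relative to Pcna with elemental diet although it was 8.03-fold higher in CPM. Neil3 reads per read of Mki67, a marker of cycling cells, were 0.0626, 0.0597 and 0.0650 with elemental diet, against 0.0614, 0.0590 and 0.0422 with saline. These groups overlapped (log2 difference 0.22, exact two-sided permutation p = 0.2, adjusted p = 0.22), and the difference was 0.05 without the third saline library. In TPM the same ratios did not overlap, at 0.0557 to 0.0607 with elemental diet and 0.0427 to 0.0511 with saline. Dut reads per Ung read were 9.34 to 10.4 with elemental diet and 4.40 to 5.17 with saline. Parp1 reads per Parp2 read were lower with elemental diet (2.67 to 3.12) than with saline (3.78 to 4.0), and the Apex1 to Apex2 ratios overlapped in reads. In TPM the Apex1 to Apex2 ratios were 23.4 to 27.9 with elemental diet and 28.2 to 36.6 with saline.

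**Figure D4:**
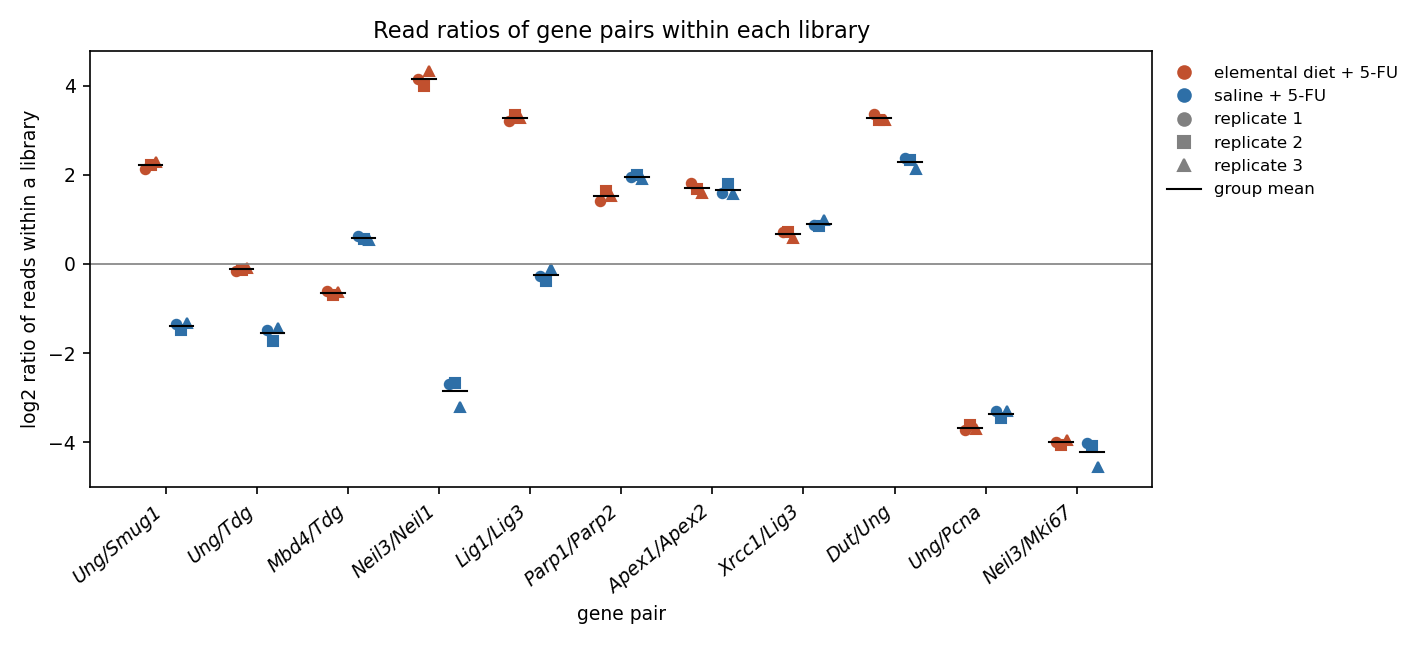
Log2 ratio of the reads of 2 genes within each library, elemental diet to the left of saline for each pair. Symbols mark replicates and black bars are group means. The read ratios, not scaled for gene length, of Ung to Smug1, Neil3 to Neil1 and Lig1 to Lig3 lie on opposite sides of 0 in the 2 groups, and those of Neil3 to Mki67 overlap.

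Intron reads give a further view of the members, since they can come from unspliced RNA. All 10 members had a lower mean intron share with elemental diet, and the groups did not overlap for 9 of them (exact two-sided permutation p = 0.1 each, 0.111 adjusted over 10 genes). Of 16967 tested genes with a read in every library and an intron read in any, 54.4% did not overlap, and 48.8% did not overlap and were lower. Polb had 33.2% ± 0.965 of its reads in introns with elemental diet and 46.4% ± 0.195 with saline (SD, n = 3), and Tdg 3.88% ± 0.403 with elemental diet, against 13.7% ± 0.309 with saline. On unique reads the Tdg difference was -20.7 percentage points in place of -9.83, and that of Apex1 -2.75 in place of -1.47. The intron share of all reads was also lower, at 8.64% ± 0.225 with elemental diet and 14.0% ± 0.341 with saline, and its part in the shares of single genes was not tested. Neil3 stood apart with 48.6% ± 1.05 with elemental diet and 50.9% ± 13.0 with saline, where the groups overlapped and the saline libraries held only 66 to 96 Neil3 reads each.

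**Figure D5:**
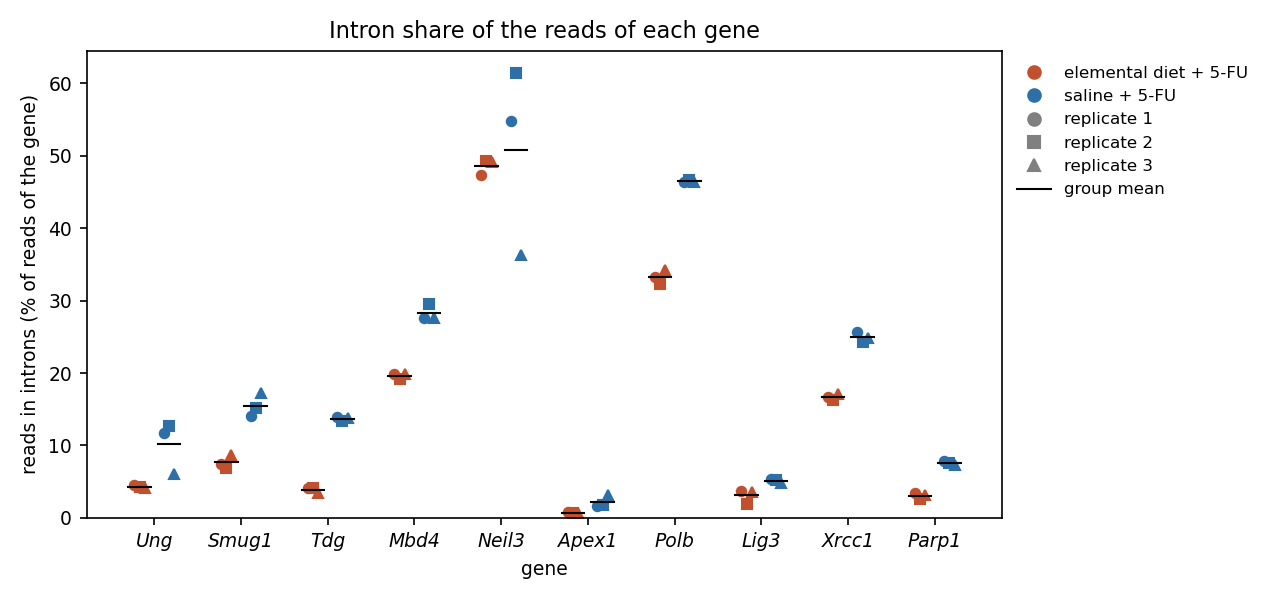
Share of the reads of each member that lay in introns, in percent, for each library, elemental diet to the left of saline. Symbols mark replicates and black bars are group means; 9 members are lower in all elemental diet libraries, and the 3 saline values of Neil3 spread from 36.4% to 61.5%.

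The genes whose levels ran closest to Ung over the 6 libraries, by the root mean square distance of log2 CPM centred on each gene's mean, were Pxmp2, Ttll12, Fam241a, Diaph3 and Knstrn, at distances of 0.03 to 0.05. Those closest to Tdg were Nbn, Mrpl14, Rps27l, Yars2 and Mdh2, at 0.02 to 0.03. With 2 groups this measure mostly ranks genes by how near their fold change lies to that of the member.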

How the data were processed

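Per the labels' protocols, polyadenylated RNA was sequenced as paired reads of 75 bp; the protocol names fibroblasts or keratinocytes as the RNA source where the tissue label says salivary gland. The deposited files hold, per the file headers, whole-number read counts per gene (total, unique, exon, intron and exon-exon) and TPM computed by the authors. The sources used here give no aligner, counter or use of strand. Builds GRCh37 and GRCm38 stand in the submitters' processing notes, and 50 of 52 pathway genes had the same coordinates in GENCODE M21 (GRCm38).

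Total reads, shared and intron reads included, were tested with edgeR 4.0.16 in R 4.3.3 (glmQLFit, robust; glmQLFTest, two-sided; TMM; filterByExpr; Benjamini-Hochberg at 0.05 over 18303 genes), a test tried on simulated counts. The SE is the absolute log2 fold change over the square root of F. Alternatives used limma 3.58.1, DESeq2 1.42.0, other scalings, other read classes and libraries left out. CPM are TMM-scaled. Between replicates of a group the median chi-square per gene, a squared measure, was at least 2.83 times that of sampling noise. Ratios and intron shares used exact permutation tests, and no set test was run.

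Members and lists were chosen with earlier results of these data known. The naming rule took the 10 members, the 3 genes of smallest p in each of 4 pathway lists, 11 fixed genes (among them Pcna, Fen1, Lig1, Ogg1, Neil1, Parp2, Apex2, Dut, Tyms and Fam72a), and the 5 genes nearest Ung and nearest Tdg. List counts cover every listed gene, of which 2 are not reported here by name.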

Additional observations from a re-analysis of the deposited data

How the results depend on the processing

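Of the recomputed member fold changes 162 kept direction and call, and 8 kept direction but lost the call; their causes were not tested. With upper quartile factors these were Mbd4 (0.0798) and Polb (0.0413), without composition factors Mbd4 (0.0430) and Polb (0.0048), on unique reads Mbd4 (0.0975), on log2(TPM + 0.1) with limma Mbd4 (0.104), and on unique exon-exon reads Mbd4 (0.332) and Smug1 (-0.362). Leaving out any 1 library changed no member's call. The last read class, chosen after overlaps between genes were seen, also gave 0 members and 4750 genes called lower. Over all genes 5601 were higher and 9051 lower with upper quartile factors. Exon reads gave 2 other glycosylases called higher. DESeq2 gave 2 end-processing genes called lower, and leaving out a library 2 to 4. Genes near 0 changed sign. Ogg1 was 0.0425 with RLE factors and 0.0425 with DESeq2, and -0.0636 to 0.0382 with a library left out. Nthl1 was called higher on exon reads (0.400), and was -0.272 with upper quartile factors, -0.308 without composition factors, -0.0334 on unique reads, -0.0099 without hemoglobin and immunoglobulin genes, -0.0013 with the replicate block and -0.0449 to 0.0930 with a library left out. Apobec3 was -0.165 with upper quartile factors, -0.202 without composition factors and -0.138 on TPM, where Apobec2 was -0.112. Apobec3 was also called higher with RLE factors (0.152), DESeq2 (0.152), unique reads (0.234), exon reads (0.161) and unique exon-exon reads (0.814), and without the first elemental diet library (0.188). Log2 differences of read ratios moved on unique reads for Ung/Tdg (1.75), Mbd4/Tdg (-1.13) and Apex1/Apex2 (0.298), and on exon reads for Parp1/Parp2 (-0.593), Apex1/Apex2 (-0.331), Xrcc1/Lig3 (-0.109) and Dut/Ung (1.13). On unique exon-exon reads they moved for Ung/Smug1 (2.94), Ung/Tdg (1.21), Mbd4/Tdg (-1.12), Parp1/Parp2 (-0.764), Apex1/Apex2 (-0.290), Xrcc1/Lig3 (-0.0738), Dut/Ung (1.31), Ung/Pcna (-0.497) and Neil3/Mki67 (0.528). Apex1/Apex2 ran from -0.0077 to 0.115 with a library left out. Replicate numbers did not pair the samples (r of same-numbered deviations 0.117, -0.0080 and 0.0578), and with the replicate block 6925 genes were higher and 7316 lower, 9 members and 1 member among them. Smug1 had few junction reads in every library, and Neil3 had few reads in the saline libraries. Why these were few was not tested.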
